A study of Homo sapiens with 24 samples.

Results

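Fatty acid synthesis was followed through 10 genes, 7 of the cytosolic route (SLC25A1, ACLY, ACSS2, ACACA, ACACB, MID1IP1 and FASN) and 3 of the mitochondrial route (MCAT, OXSM and MECR), out of 58735 genes counted in each library. They were chosen by symbol and matched to the Ensembl identifiers of the count files, and all 10 were found and passed the filter on low counts. RNA came from HT-144, an established human line of malignant melanoma from a metastatic site, grown in serum-free medium with an insulin, transferrin and selenium supplement. Every group was transfected with Lipofectamine RNAiMAX from the time of plating and kept for 3 days. The control side held Mock, which received no oligonucleotide, siNegative, a negative control pool of small interfering RNAs (siRNAs) at 50 nM, and ASO-Neg, a negative control antisense oligonucleotide (ASO, a single strand that pairs with its target RNA) at 5 nM. The other side held siSREBF1, a pool of siRNAs to SREBF1 at 50 nM, and the ASOs to SREBF1 named ASO-SREBF1-S1 and ASO-SREBF1-S4, each at 5 nM. By its title the series asks what depleting SREBF1 with an ASO changes. Each group was 1 library of 1 line, so the 3 libraries of a side carry different reagents, and p-values measure the spread between such libraries.

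Cells build fatty acids at both sites with related chemistry. In the cytosol, SLC25A1 brings citrate out of the mitochondrion, ACLY splits it to acetyl-CoA, ACSS2 makes acetyl-CoA from acetate, the acetyl-CoA carboxylases ACACA and ACACB turn acetyl-CoA into malonyl-CoA, and FASN, a single large protein with every activity of the cycle, joins these units into palmitate. In mitochondria the same steps are spread over separate proteins, and the main known use of the product is the octanoyl group from which lipoic acid, the cofactor of pyruvate dehydrogenase and its relatives, is made. SREBF1 encodes SREBP-1, a membrane-bound transcription factor that is cut free to enter the nucleus and bind sterol regulatory elements, and genes of the cytosolic route are its textbook targets.

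Promoter sequences are shown for 4 genes as examples from both routes: ACLY and MID1IP1 of the cytosolic route, the latter for its sterol element, and MCAT and MECR of the mitochondrial one. Each line gives the 250 bases before the first start site listed for the gene by RefSeq (GRCh38.p14), read in the direction of the gene, and capitals mark the sterol regulatory element (TCACNCCAC, and its full form, which is 1 base longer and contains it), the CCAAT box bound by NF-Y and the GC box GGGCGG bound by Sp1, on either strand. The windows lie at chr17:41919023-41919272 on the minus strand for ACLY, chrX:38801209-38801458 on the plus strand for MID1IP1, chr22:43143398-43143647 on the minus strand for MCAT and chr1:29230935-29231184 on the minus strand for MECR.
ACLY: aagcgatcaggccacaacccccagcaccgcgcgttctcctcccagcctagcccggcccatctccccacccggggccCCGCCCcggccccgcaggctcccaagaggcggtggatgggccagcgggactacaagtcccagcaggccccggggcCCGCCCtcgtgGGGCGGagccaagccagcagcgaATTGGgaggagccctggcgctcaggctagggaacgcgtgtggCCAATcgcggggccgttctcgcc
MID1IP1: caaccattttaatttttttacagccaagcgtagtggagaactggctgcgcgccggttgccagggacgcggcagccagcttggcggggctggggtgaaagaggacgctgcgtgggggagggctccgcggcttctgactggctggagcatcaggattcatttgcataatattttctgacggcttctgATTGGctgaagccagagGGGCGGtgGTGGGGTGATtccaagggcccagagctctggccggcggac
MCAT: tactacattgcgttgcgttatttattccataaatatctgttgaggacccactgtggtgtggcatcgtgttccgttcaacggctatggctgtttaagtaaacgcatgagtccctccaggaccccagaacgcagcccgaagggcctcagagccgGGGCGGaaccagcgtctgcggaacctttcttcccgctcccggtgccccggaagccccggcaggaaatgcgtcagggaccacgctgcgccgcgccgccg
MECR: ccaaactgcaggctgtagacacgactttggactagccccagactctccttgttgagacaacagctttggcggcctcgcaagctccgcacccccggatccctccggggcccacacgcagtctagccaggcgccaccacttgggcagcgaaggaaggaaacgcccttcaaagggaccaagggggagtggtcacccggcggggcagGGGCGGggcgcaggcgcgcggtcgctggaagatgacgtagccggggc
The ACLY window held CCAAT boxes at -65 and -23 and upstream GC boxes at -174, -99 and -88 from the start site. MID1IP1 had the full sterol element on the reverse strand at -40, with a CCAAT box at -65 and a GC box at -48. The MCAT and MECR windows held a GC box each, at -98 and -47, and neither CCAAT nor a sterol element. The first-listed windows of the cytosolic genes ACACA and ACACB, not printed, also held neither. CCAAT did stand in windows 2 and 3 of ACACA and window 2 of ACACB, while window 2 of ACSS2 held none. RefSeq gave 14 windows of 300 bases (50 of them after the start) for 8 of the 10 genes, all but FASN and OXSM, and in the first-listed windows a CCAAT box stood in 4 of 8 (ACLY, ACSS2, SLC25A1 and MID1IP1), a GC box in 7 of 8 and a sterol element in 1 of 8. Of all 35116 windows, 34.61% held CCAAT, 44.95% held GGGCGG, 1.128% held TCACNCCAC and 0.04556% held the full sterol element. The E-box CANNTG stood in 5 of 8 first-listed windows and 68.68% of all windows, and its form CACGTG in 0 of 8 and 7.256% of all. These are matches of letters, not measured binding.

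Summed gene counts ran from 12916478 in Mock to 47900277 in ASO-SREBF1-S1, so a count of 3 was worth 0.0626 to 0.2323 CPM (counts scaled to a common library size, here with TMM factors). SREBF1 was with siSREBF1 at 22.0% of siNegative, with ASO-SREBF1-S4 at 32.4% and with ASO-SREBF1-S1 at 35.4% of ASO-Neg, which fits the labels. All 8 melanocytic markers were detected, with summed levels of 4802 to 6291 CPM in controls and 4131 to 5596 CPM in targeting libraries. Of 5 adipocyte markers, genes of a cell type rich in lipid synthesis, 2 were at 0 and none reached 1 CPM. Fibroblast markers summed to 711 to 926 CPM in controls and 674 to 978 CPM in targeting libraries, most of it COL1A2. Averaged over the 6 libraries, COL1A2 was at 682.8 CPM, LUM at 70.9 and FAP at 38.3. PDGFRB was at 6.60 CPM, DCN at 1.83, PDGFRA at 1.24, COL1A1 at 1.02 and THY1 at 0.118. Of 6 keratinocyte and 6 immune markers, 5 of each list stayed under 1 CPM, as did 3 of 5 endothelial markers. In bulk RNA, fewer cells of a type and less RNA per cell cannot be told apart.

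**Figure D1:**
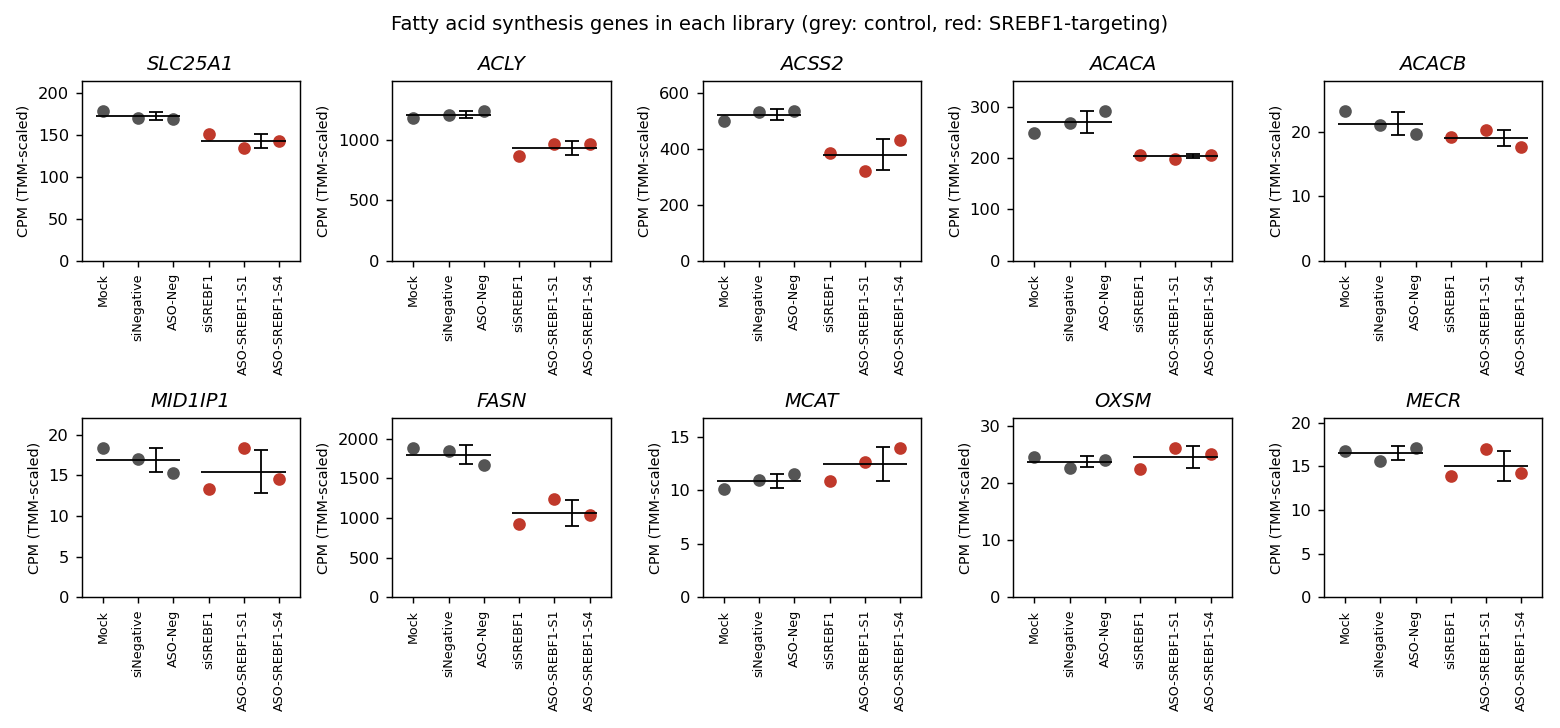
Each panel plots 1 gene, with the TMM-scaled CPM of each of the 6 libraries on an axis from 0 (grey control, red SREBF1-targeting), and lines with bars for the mean and SD of 3 libraries. The red points of SLC25A1, ACLY, ACSS2, ACACA and FASN all lie below the grey ones, while both sides overlap for ACACB, MID1IP1, MCAT, OXSM and MECR.

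The 10 transcripts differed widely in level per length of exon. In controls, ACLY was the most abundant at 231.6 ± 5.84 CPM per kb (SD, n = 3), followed by FASN at 193.0 ± 12.6, ACSS2 at 99.8 ± 3.68, SLC25A1 at 86.2 ± 2.55 and ACACA at 20.7 ± 1.63 CPM per kb. The mitochondrial enzymes were far lower, with OXSM at 9.61 ± 0.38, MCAT at 4.55 ± 0.29 and MECR at 3.98 ± 0.19 CPM per kb. MID1IP1 was at 3.50 ± 0.32 and ACACB, the carboxylase of the outer mitochondrial membrane, was lowest at 1.47 ± 0.13 CPM per kb. Among neighbours in this order only the ranges of MECR and MID1IP1 overlapped in controls. The order was the same on the targeting side, where the ranges of ACSS2 and SLC25A1 overlapped as well. The 10 genes summed to between 648.5 and 658.8 CPM per kb in the controls and to between 449.8 and 488.8 CPM per kb in the targeting libraries. FASN made up 27.6% to 30.9% of that sum in controls and 21.9% to 27.2% in targeting libraries, and the 3 mitochondrial genes 2.66% to 2.88% and 3.77% to 4.11%.

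The 3 genes of acetyl-CoA supply were lower in every targeting library than in any control. ACLY (ENSG00000131473, GRCh38 chromosome 17, 41866917 to 41930542), the ATP citrate lyase, stood at 1237.5 CPM in ASO-Neg, 1204.5 in siNegative and 1176.7 in Mock, against 961.1 in ASO-SREBF1-S4, 963.5 in ASO-SREBF1-S1 and 863.5 in siSREBF1. The controls lay close together and the ASO libraries closer still, with siSREBF1 the lowest. The mean went from 1206 ± 30.4 to 929.4 ± 57.1 CPM (SD, n = 3 each), 77.0% of control, and in edgeR's quasi-likelihood test over all genes the log2 ratio was -0.38 (SE 0.076, adjusted p = 0.172). ACSS2 (ENSG00000131069, chromosome 20, 34872146 to 34927962), which activates acetate, stood at 536.8 CPM in ASO-Neg, 533.1 in siNegative and 501.7 in Mock, against 434.1 in ASO-SREBF1-S4, 322.7 in ASO-SREBF1-S1 and 384.5 in siSREBF1. Its targeting libraries were spread more widely than its controls, and ASO-SREBF1-S1, not the siRNA, was lowest. The log2 ratio was -0.46 (SE 0.105, edgeR adjusted p = 0.208), 72.6% of control. SLC25A1 (ENSG00000100075, chromosome 22, 19175581 to 19178739), the mitochondrial citrate carrier, stood at 178.2, 170.3 and 168.7 CPM in Mock, siNegative and ASO-Neg, against 142.4 in ASO-SREBF1-S4, 134.4 in ASO-SREBF1-S1 and 150.5 in siSREBF1. It had the smallest difference of the 3 genes, with siSREBF1 nearest to the controls. The log2 ratio was -0.28 (SE 0.069, edgeR adjusted p = 0.237), 82.6% of control.

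At the step to malonyl-CoA, both carboxylase genes gave different pictures. ACACA (ENSG00000278540, chromosome 17, 37084992 to 37406836), the cytosolic acetyl-CoA carboxylase whose product feeds FASN, stood at 291.4 CPM in ASO-Neg, 266.9 in siNegative and 249.2 in Mock, against 205.6 in ASO-SREBF1-S4, 198.3 in ASO-SREBF1-S1 and 205.5 in siSREBF1. The targeting libraries lay within 8 CPM of each other, while ASO-Neg stood above both other controls. The mean went from 269.1 ± 21.2 to 203.1 ± 4.19 CPM (SD, n = 3 each), and edgeR put the log2 ratio at -0.41 (SE 0.075, adjusted p = 0.123). ACACB (ENSG00000076555, chromosome 12, 109116587 to 109268226), whose malonyl-CoA restrains fatty acid entry into mitochondria, stood at 23.3, 21.1 and 19.7 CPM in Mock, siNegative and ASO-Neg, against 17.7 in ASO-SREBF1-S4, 20.3 in ASO-SREBF1-S1 and 19.2 in siSREBF1. The sides overlapped, since ASO-SREBF1-S1 was above ASO-Neg. Its log2 ratio was -0.15, with an interval from -0.38 to 0.07 (edgeR adjusted p = 0.642), which reaches close to the value of ACACA. MID1IP1 (ENSG00000165175, chromosome X, 38801440 to 38806537), a small protein that promotes polymerisation of the carboxylases, stood at 18.4, 17.0 and 15.3 CPM in Mock, siNegative and ASO-Neg, against 14.6 in ASO-SREBF1-S4, 18.4 in ASO-SREBF1-S1 and 13.4 in siSREBF1. The sides overlapped, with ASO-SREBF1-S1 as high as Mock. The log2 ratio was -0.11, with an interval from -0.42 to 0.20 (edgeR adjusted p = 0.831).

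FASN (ENSG00000169710, chromosome 17, 82078338 to 82098294), the fatty acid synthase, differed most among the 10 genes. It stood at 1665.3 CPM in ASO-Neg, 1842.7 in siNegative and 1887.5 in Mock, against 1033.2 in ASO-SREBF1-S4, 1234.8 in ASO-SREBF1-S1 and 919.3 in siSREBF1. The gap between the lowest control and the highest targeting library was 430.6 CPM, wider than the range of either side. The targeting mean was 59.1% of the control mean, with a log2 ratio of -0.76 (SE 0.114, interval -1.02 to -0.50). Its unadjusted p was 8.67e-05 and its adjusted p 0.0738 in edgeR, so it did not pass 0.05 over all genes. ASO-SREBF1-S1 had the highest FASN of the targeting libraries, so leaving it out was bound to widen the difference. The log2 ratio was then -0.88 and the edgeR adjusted p 0.0096, where 0.235% of all genes passed as lower. Leaving out any other single library gave an edgeR adjusted p from 0.0768 (without siSREBF1) to 0.420 (without siNegative). Over all 17 ways of fitting the adjusted p ran from 4.27e-11 to 0.759 and the log2 ratio from -0.88 to -0.66.

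The 3 mitochondrial genes did not separate the sides. MCAT (ENSG00000100294, chromosome 22, 43132209 to 43143398), which loads malonyl groups onto the acyl carrier protein, stood at 11.5 CPM in ASO-Neg, 10.99 in siNegative and 10.1 in Mock, against 14.0 in ASO-SREBF1-S4, 12.7 in ASO-SREBF1-S1 and 10.8 in siSREBF1. Both ASO libraries were above all controls and siSREBF1 was among them, which gave a log2 ratio of 0.20 (interval -0.08 to 0.48, edgeR adjusted p = 0.626). OXSM (ENSG00000151093, chromosome 3, 25782917 to 25794534), the condensing enzyme, stood at 24.6, 22.7 and 24.1 CPM in Mock, siNegative and ASO-Neg, against 25.2 in ASO-SREBF1-S4, 26.3 in ASO-SREBF1-S1 and 22.5 in siSREBF1. Its log2 ratio was 0.06 (interval -0.15 to 0.26, edgeR adjusted p = 0.868). MECR (ENSG00000116353, chromosome 1, 29192657 to 29230942), the reductase that completes the cycle, stood at 16.7, 15.6 and 17.1 CPM in Mock, siNegative and ASO-Neg, against 14.2 in ASO-SREBF1-S4, 17.0 in ASO-SREBF1-S1 and 13.9 in siSREBF1. ASO-SREBF1-S1 sat with the controls and the other two targeting libraries just below them, for a log2 ratio of -0.12 (interval -0.37 to 0.13, edgeR adjusted p = 0.757). These genes had 129 to 1266 reads per library, against 12318 to 59531 for FASN. Exons of OXSM overlap those of NGLY1 on the opposite strand by 536 bp, and the counts used here keep the strands apart.

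Across the 3 targeting against 3 control libraries, 0 of the 10 genes passed an adjusted p of 0.05 in edgeR, where 0.0595% of 15123 genes did (0.0397% lower). At an unadjusted p under 0.05, 5 of the 10 were lower and 0 higher, against 5.3% of all genes lower and 4.93% higher. The same 5 genes, all cytosolic (SLC25A1, ACLY, ACSS2, ACACA and FASN), had every targeting library below every control, against 8.52% of all genes. They were lower at an unadjusted p under 0.05 in each of the 17 ways of fitting. The median log2 ratio of the 10 genes was -0.22, with 8 below 0, against 0.006 over all genes, of which 48.5% were below 0. DESeq2's Wald test put 4 of the 10 past an adjusted p of 0.05 (ACLY, ACSS2, ACACA and FASN, all lower), where 0.632% of its genes were called lower, and limma-voom put 0 past it, where 0.0331% were lower.

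**Figure D2:**
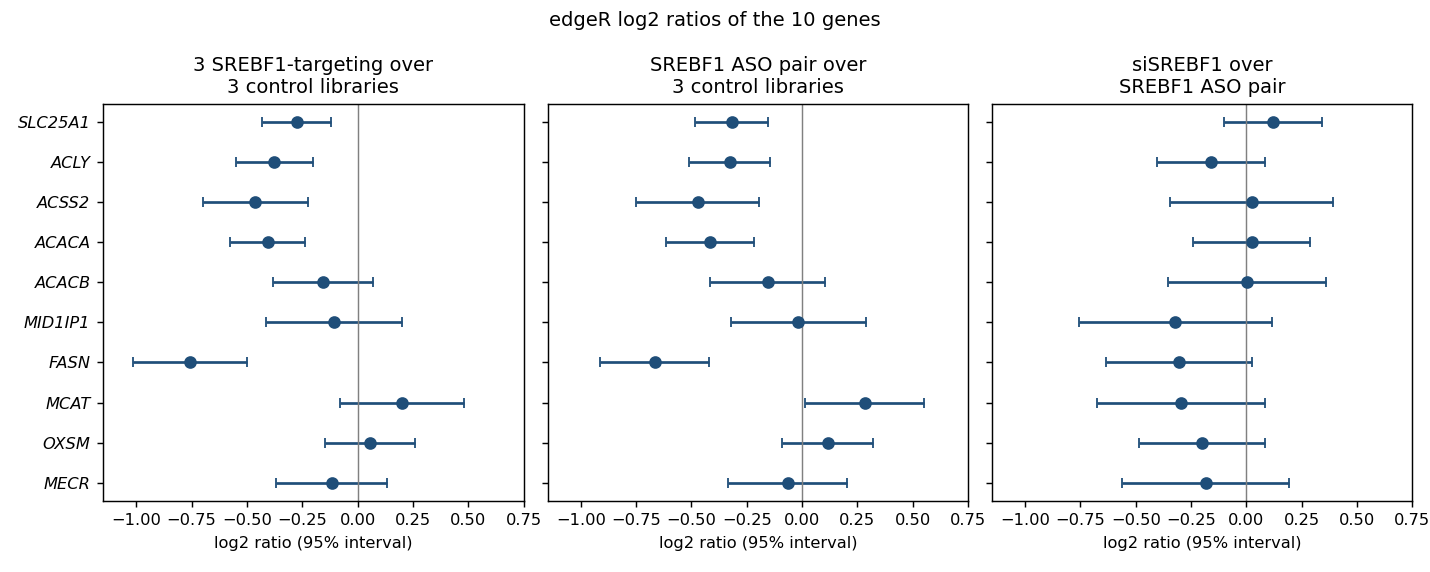
Log2 ratios from edgeR with 95% intervals on the horizontal axis are plotted for the 10 genes in 3 contrasts, 1 panel each. FASN is farthest to the left in the first and second panel (-0.76 and -0.67), and all 10 intervals hold 0 in the panel of siSREBF1 over the ASO pair.

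With the ASO pair alone set against the controls, in a fit with 3 classes, the comparison shared the 3 controls and both ASO libraries with the one above. FASN was at -0.67 (SE 0.109, edgeR adjusted p = 0.0666), ACSS2 at -0.47, ACACA at -0.42, ACLY at -0.33 and SLC25A1 at -0.32 on the log2 scale. MCAT was the only gene of the 10 on the other side of 0 at an unadjusted p under 0.05, with a log2 ratio of 0.28 (edgeR adjusted p = 0.429). In edgeR 0 of the 10 passed adjustment, where 0.043% of 16297 genes did, and 5 were lower and 1 higher before adjustment, against 5.86% and 5.34% of all genes. DESeq2 called 4 of the 10 (ACLY, ACSS2, ACACA and FASN, lower, where 0.807% of its genes were called lower), and limma-voom 0 (0.0491% of all genes lower). Leaving out ASO-SREBF1-S1 brought 3 genes past the threshold in edgeR (ACLY, ACACA and FASN, all lower), and leaving out ASO-SREBF1-S4 brought 5 (with ACSS2 and SLC25A1), each time with 1 ASO library assumed to vary like the rest. Far more genes were called in those fits, where 2.93% and 3.22% of all genes passed as lower. The median of the 10 was -0.24, against 0.005 over all genes.

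The siRNA and the ASOs were compared directly in that fit, with siSREBF1 as 1 library assumed to vary like the others. None of the 10 genes differed at an unadjusted p under 0.05 in edgeR, where 8.71% of genes did and 0.147% passed adjustment. DESeq2 and limma-voom also put 0 of the 10 past adjustment, where 0.904% and 0.172% of genes passed. FASN was lower with the siRNA by a log2 ratio of -0.31, and its interval from -0.64 to 0.03 leaves room for a sizeable difference (edgeR adjusted p = 0.614). Without ASO-SREBF1-S4 that ratio was -0.43 with an edgeR adjusted p of 0.0290, where 2.15% of all genes passed as lower, and over its other settings the adjusted p ran up to 0.874. ASO-SREBF1-S4 had the lower FASN of the ASO libraries, so leaving it out was bound to widen the difference. Without ASO-SREBF1-S1 the FASN ratio was -0.17. Each of these fits set 1 siRNA library against 1 ASO library, both assumed to vary like the controls. They therefore cannot decide whether the reagents differed for FASN. With all libraries, the 3 mitochondrial genes were also lower with the siRNA. Their log2 ratios were -0.29 for MCAT (interval -0.67 to 0.09), -0.20 for OXSM (-0.48 to 0.09) and -0.18 for MECR (-0.56 to 0.19). ACSS2 and ACACA were both at 0.02, with intervals from -0.35 to 0.39 and from -0.24 to 0.29. The reagents were used at different doses, 50 nM and 5 nM.

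Each reagent was then set against the negative control of its own kind, 1 library over 1, with a 95% interval that covers counting error only and no test. FASN in siSREBF1 was at 49.9% of siNegative (log2 ratio -1.003, interval -1.03 to -0.97), where 0.213% of genes with 10 CPM were at least 2-fold lower. None of the 10 genes was 2-fold lower with ASO-SREBF1-S1 or ASO-SREBF1-S4 over ASO-Neg, where 0.338% and 0.274% of genes were. Against ASO-Neg, FASN was at 62.0% with ASO-SREBF1-S4 and at 74.1% with ASO-SREBF1-S1. The order of the reagents differed between genes. ACSS2 was lowest with ASO-SREBF1-S1 (60.1% of ASO-Neg, against 80.9% with ASO-SREBF1-S4 and 72.1% of siNegative with siSREBF1), and ACACA was at 68.1%, 70.6% and 77.0% in that order, where the ASOs differed within counting error. ACLY was at 77.9% and 77.7% with the ASOs, a difference within counting error, and at 71.7% with siSREBF1.

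Counting intervals lay below 0 for 6 of the 10 genes in siSREBF1 (21.7% of all genes, with 18.6% above 0 and none of the 10), 6 in ASO-SREBF1-S4 (27.2%) and 5 in ASO-SREBF1-S1 (23.9%). The 5 genes lower in all 3 were SLC25A1, ACLY, ACSS2, ACACA and FASN, and the sixth was MID1IP1 with siSREBF1 and MECR with ASO-SREBF1-S4. The intervals lay above 0 for MID1IP1 in ASO-SREBF1-S1 (23.9% of all genes) and for MCAT in ASO-SREBF1-S4 (18.3%). With ASO-SREBF1-S4 over ASO-Neg, 2 of these intervals all but reached 0. The lower limit of MCAT was 0.0009 (227 against 195 reads). The upper limit of MECR was -0.015 (231 against 291 reads). The median log2 ratio of the 7 cytosolic genes was -0.38, -0.36 and -0.31 in siSREBF1, ASO-SREBF1-S1 and ASO-SREBF1-S4, and that of the 3 mitochondrial genes was -0.02, 0.13 and 0.06. Both ASO contrasts share the ASO-Neg library.

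The controls gave the size of differences without SREBF1 depletion. For siNegative over Mock, intervals lay below 0 for 1 gene (12.5% of all genes) and above 0 for 3 (12.3%), with ACACA the farthest from 0 among the last at 0.10. For ASO-Neg over Mock they lay below 0 for 3 (14% of all genes) and above 0 for 3 (16.6%). The widest of these were MID1IP1 at -0.26, ACACB at -0.25, ACACA at 0.23 and FASN at -0.18. The cytosolic medians were -0.03 and -0.08. The higher ACACA and lower FASN of ASO-Neg enter every ratio taken over it. Between ASO-SREBF1-S4 and ASO-SREBF1-S1, ACSS2 was at 0.43 and FASN at -0.26, opposite in direction. There, 4 of the 10 intervals lay below 0 and 2 above it, against 33.2% and 24.2% of all genes.

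**Figure D3:**
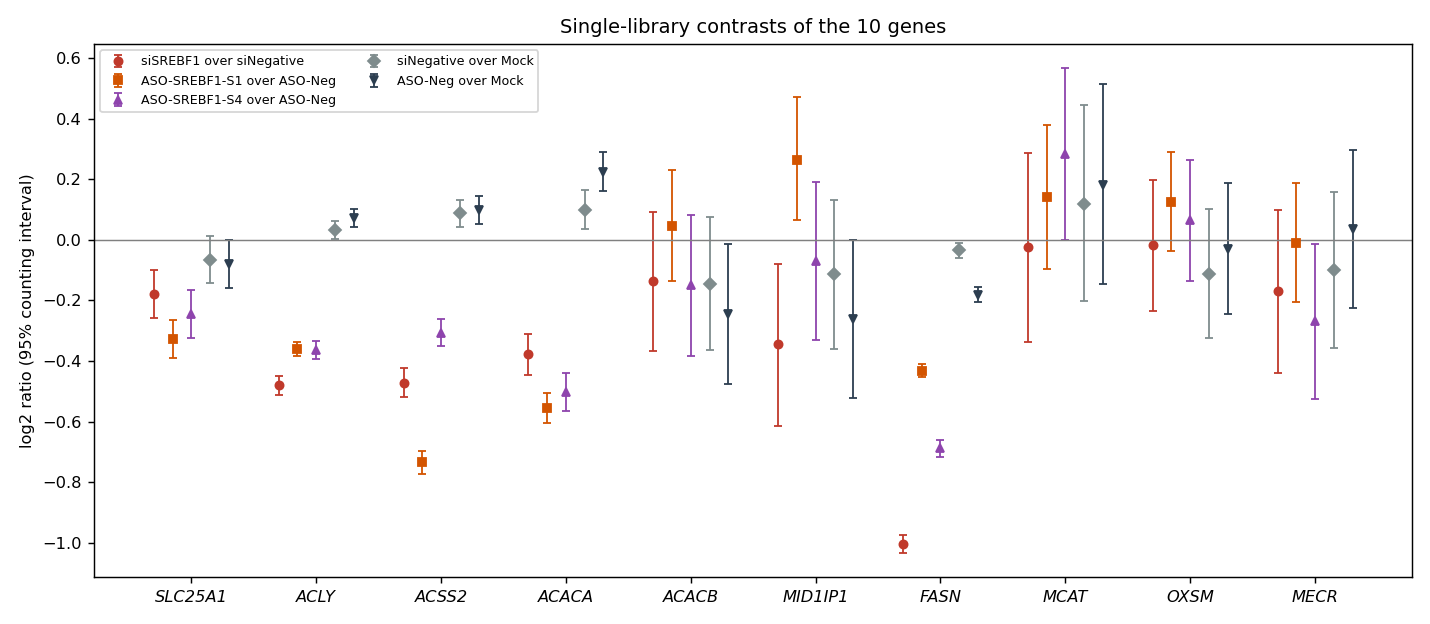
Log2 ratios of 5 single-library contrasts with 95% counting intervals are plotted for each gene, the 3 SREBF1 reagents over their negative controls and both negative controls over Mock. SLC25A1, ACLY, ACSS2, ACACA and FASN have all 3 reagent points below 0, with FASN in siSREBF1 lowest at -1.003.

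Ratios of counts within a library, which do not depend on scaling, set FASN beside the mitochondrial enzymes that carry out single steps of its cycle. FASN had 186, 168 and 145 reads per MCAT read in Mock, siNegative and ASO-Neg, against 74.0 in ASO-SREBF1-S4, 97.6 in ASO-SREBF1-S1 and 85.0 in siSREBF1. Per OXSM read the ratios were 76.8, 81.0 and 69.2 in controls, against 41.0 in ASO-SREBF1-S4, 47.0 in ASO-SREBF1-S1 and 40.9 in siSREBF1. Per MECR read they were 113, 118 and 97.2, against 72.7 in ASO-SREBF1-S4, 72.5 in ASO-SREBF1-S1 and 66.2 in siSREBF1. In all 3 ratios every targeting library was below every control, and the mean log2 ratio differed by -0.96 for MCAT, -0.82 for OXSM and -0.63 for MECR. The exact 2-sided permutation test gave p = 0.1 for each, the smallest that 3 against 3 libraries allow (adjusted p = 0.167 over 5 ratios), so this design could not reach 0.05. These ratios share the FASN counts and are not independent of the differences above.

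The other ratios of the 5 compared enzymes that make the same product. Reads of ACLY per read of ACSS2 numbered 2.35, 2.26 and 2.31 in Mock, siNegative and ASO-Neg, against 2.21 in ASO-SREBF1-S4, 2.99 in ASO-SREBF1-S1 and 2.25 in siSREBF1. Only ASO-SREBF1-S1 stood away from the rest, and the exact permutation test gave p = 1 (adjusted p = 1). For ACACA per ACACB read the values were 10.7, 12.7 and 14.8 in controls, against 10.7, 9.77 and 11.6 in siSREBF1, ASO-SREBF1-S1 and ASO-SREBF1-S4. The sides overlapped, with a mean log2 difference of -0.24 and an exact permutation p of 0.3 (adjusted p = 0.375).

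**Figure D4:**
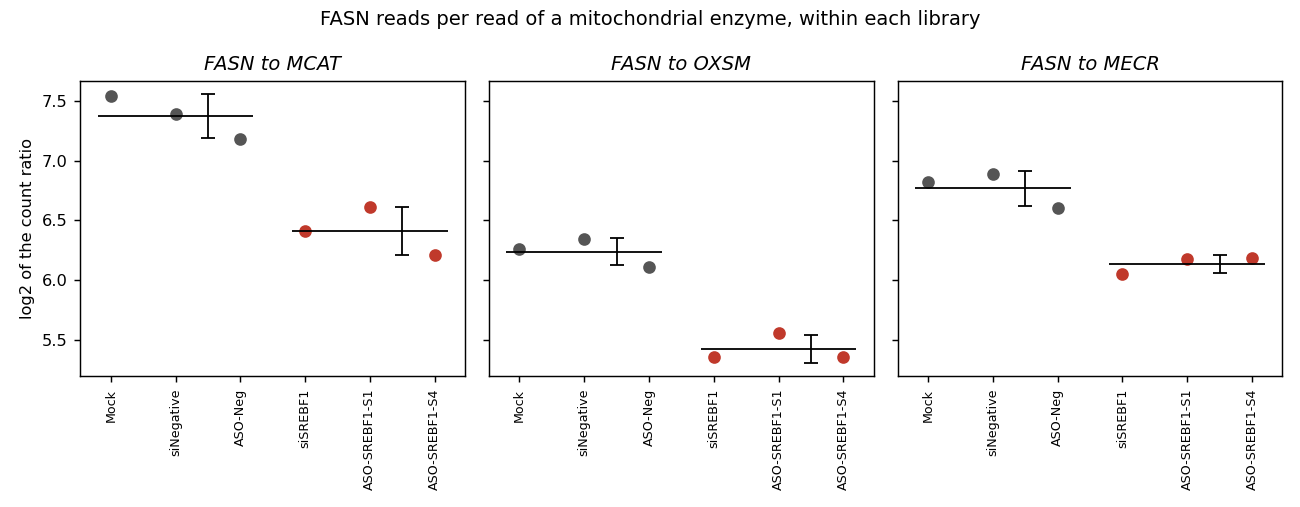
The log2 of FASN reads per read of MCAT, OXSM or MECR is plotted for each of the 6 libraries (grey control, red SREBF1-targeting), with lines and bars for the mean and SD of 3 libraries. In each panel the 3 red points lie below the 3 grey ones, by -0.96, -0.82 and -0.63 between the means.

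Around the 10 genes, 59 others of the pathway were examined in 5 lists, of which 55 were tested. THRSP, OLAH and SLC13A5 were at or near 0 in these cells. HTD2 had 0 to 3 reads per library. It lies within the span of RPP14 on the same strand, which averaged 21.6 CPM over the libraries. The low count of HTD2 may therefore not measure its transcript. In edgeR 0 of the 55 passed adjustment, with 3 higher and 5 lower at an unadjusted p under 0.05 (4.93% and 5.3% of all genes), and DESeq2 and limma-voom also put 0 past it. Their median log2 ratio was -0.01. The supply of citrate and acetyl-CoA had the lowest median of the 5 lists, -0.11 over 14 tested genes, with 13 of them below 0 (48.5% of all genes) and 2 lower before adjustment (5.3% of all genes). ACSS1, the mitochondrial acetate-activating enzyme, was at -0.36 (edgeR adjusted p = 0.300), with 80.0, 89.7 and 76.6 CPM in Mock, siNegative and ASO-Neg against 66.8 in ASO-SREBF1-S4, 70.4 in ASO-SREBF1-S1 and 54.2 in siSREBF1.

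Among 12 tested genes that control malonyl-CoA, the median was 0.02, and the smallest p-values belonged to subunits of AMP-activated protein kinase, which inhibits the carboxylases. PRKAB2 was at 0.32 (edgeR adjusted p = 0.276), with 38.1, 39.9 and 45.6 CPM in Mock, siNegative and ASO-Neg against 55.3 in ASO-SREBF1-S4, 51.2 in ASO-SREBF1-S1 and 48.2 in siSREBF1, and PRKAG2 was at 0.30 (0.400). Of 11 further cytosolic genes, which include those that make coenzyme A, the pantothenate kinase genes PANK4 and PANK3 had the smallest p-values, at -0.32 and -0.20 (edgeR adjusted p = 0.344 and 0.358), and the median was 0.13. The 6 further mitochondrial genes had a median of 0.03, with HSD17B10 at 0.17 and ACSF3, which makes malonyl-CoA inside mitochondria, at -0.16 (edgeR adjusted p = 0.556 and 0.604). None of the 6 had an unadjusted p under 0.05.

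Lipoylation is where the mitochondrial pathway delivers its product, and the 12 genes of this list had a median of 0.04. DLAT, a lipoylated subunit of pyruvate dehydrogenase, was at -0.36 (edgeR adjusted p = 0.386). It stood at 81.2, 72.6 and 78.1 CPM in Mock, siNegative and ASO-Neg. Against these, it was at 66.2 CPM in ASO-SREBF1-S4, 67.0 in ASO-SREBF1-S1 and 45.9 in siSREBF1. The siRNA library lay well below both ASO libraries, a log2 ratio of -0.54 (edgeR unadjusted p = 0.0009, adjusted p = 0.154). PDHX, which anchors another subunit in that complex, was at 0.16 (edgeR adjusted p = 0.484).

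**Figure D5:**
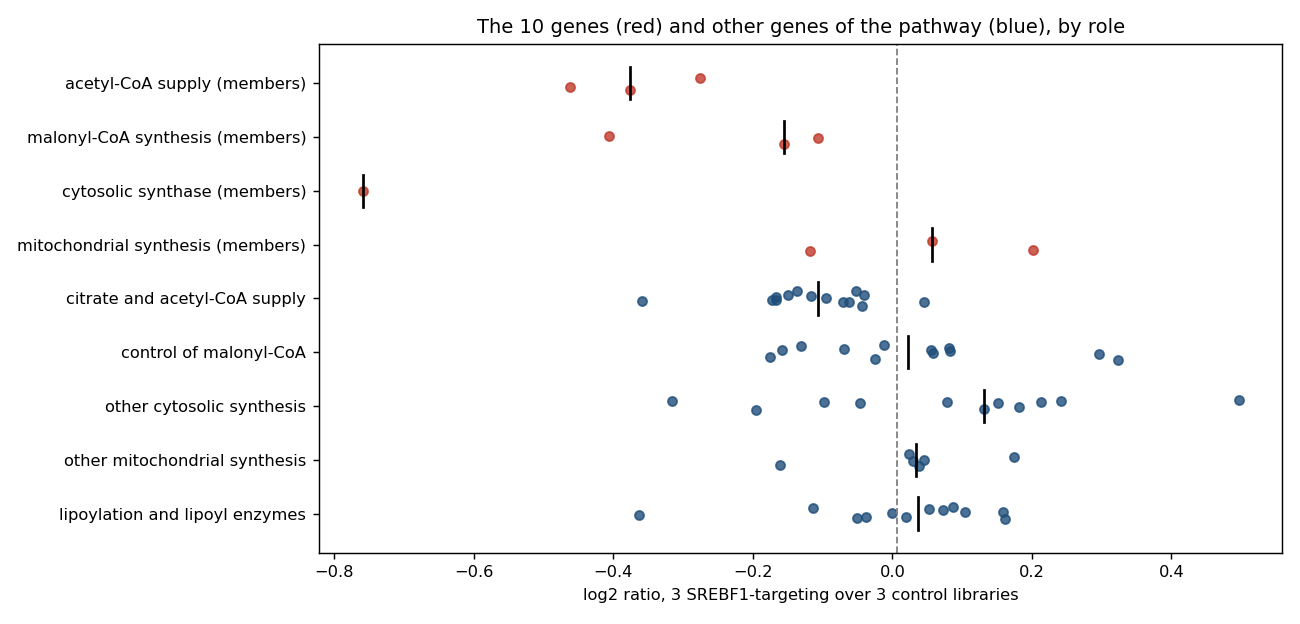
Each point is a gene at its edgeR log2 ratio of the 3 SREBF1-targeting over the 3 control libraries, in rows by role, red for the 10 genes and blue for the other 55, with a black bar at each row's median and a dashed line at the median of all genes (0.006). FASN at -0.76 and the row of acetyl-CoA supply lie left of the line, and the other mitochondrial and lipoylation rows spread to both sides of it.

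Profiles over the 6 libraries were compared by the Euclidean distance of centred log2 CPM among 9664 genes, as a description. Nearest to FASN were JAKMIP2 at 0.187, SLC2A6, a glucose transporter family member, at 0.228 and FGFBP3 at 0.260. JAKMIP2 stood at 40.3, 42.5 and 42.0 CPM in Mock, siNegative and ASO-Neg against 25.3 in ASO-SREBF1-S4, 29.1 in ASO-SREBF1-S1 and 21.6 in siSREBF1, the same order of targeting libraries as FASN. Nearest to MECR was ACAT1, the mitochondrial acetoacetyl-CoA thiolase, at 0.042, with 79.7, 75.8 and 80.0 CPM in controls against 67.2, 81.9 and 68.6 in siSREBF1, ASO-SREBF1-S1 and ASO-SREBF1-S4. PATL1 followed at 0.049 and HMGB1P6 at 0.051, the last a pseudogene whose reads may belong to its parent gene.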

How the data were processed

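Polyadenylated RNA was sequenced from strand-specific libraries as read pairs of 75 bp on an Illumina NextSeq, per the labels' protocols. Alignment by the authors used GRCh38 as the genome and STAR 2.6.1a, with FastQC also named in the submitters' processing notes, and the annotation is not given in the sources used here. Each of the 24 deposited files holds raw counts of reads per gene for 1 of 4 technical replicates (lanes) of 1 of 6 libraries. The column for the reverse strand was used, since the opposite strand held 6.47% to 7.79% of counts, and summary lines for reads without a gene (18.2% to 19.3%) were left out. Lanes of 1 library agreed within sampling noise (chi-square per degree of freedom 1.018 to 1.047, against at least 2.03 between libraries) and were summed. Coordinates and exon lengths came from GENCODE 44 on GRCh38, which matched 58207 gene identifiers with 99.93% of counts. Levels per kb divide CPM by the joint length of all exons.

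Tests used edgeR 4.0.16 (R 4.3.3): TMM scaling, filterByExpr, the 2-sided quasi-likelihood F test and Benjamini-Hochberg adjustment over all genes at 0.05. Single-library ratios have exact Clopper-Pearson 95% intervals and a size rule of 2-fold with 10 CPM in 1 library. Alternatives were RLE size factors, no filter, DESeq2 1.42.0, limma-voom (limma 3.58.1), unstranded counts, total gene count scaling, chemistry (ASO or siRNA) as a term, and leaving out each library or each lane. The fits were tested on simulated data in which all libraries shared the same fixed spread, which libraries of different reagents need not do. Named genes were the 10 genes, the 2 with the smallest p of each other list, and the 3 nearest profiles to FASN and to MECR among genes averaging 10 CPM or more. A gene that this rule names is not reported here. All genes, lists and tests were chosen with earlier results of these data known.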

Additional observations from a re-analysis of the deposited data

Results flagged for a closer look

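MID1IP1 differed in direction between reagents: its single-library log2 ratio was -0.34 for siSREBF1 over siNegative and 0.27 for ASO-SREBF1-S1 over ASO-Neg, with counting intervals on opposite sides of 0. The difference between those ratios was not tested; siSREBF1 against the ASO pair gave -0.32 (edgeR adjusted p = 0.706). MID1IP1 was also lower in ASO-Neg than in Mock (-0.26).

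Within libraries, 3 of 60 sets of 4 lanes had 1 lane far from the others by Dixon's test, all for MID1IP1, and chance alone gives about 1 in 20. CPM of single lanes were scaled to the total count of the lane, without TMM factors. Technical replicate 4 of siNegative was at 14.4 CPM (the others 17.4 to 17.5). Technical replicate 3 of siSREBF1 was at 16.5 CPM (12.4 to 12.8) and technical replicate 3 of ASO-Neg at 13.1 CPM (15.4 to 15.6). The SD of the 4 lanes was no larger than counting error alone gives in any of these sets. As a share of the mean it was 9.25% against 10.9% in siNegative, 14.5% against 14.9% in siSREBF1 and 8.07% against 12.4% in ASO-Neg. MID1IP1 had 179 to 887 reads per library.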

How the results depend on the processing

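The 5 cytosolic genes SLC25A1, ACLY, ACSS2, ACACA and FASN kept a log2 ratio below 0 and an unadjusted p under 0.05 in all 17 fits of targeting against control libraries and all 15 of the ASO pair. Which genes passed adjustment depended on the processing, and the cause was not tested. Targeting against control called 9 genes, 509 without the low-count filter (4 of the 10 genes), 164 with DESeq2 (4 of the 10), 5 with limma-voom and 0 with chemistry as a term. Leaving out 1 library gave 1 (Mock or ASO-Neg) to 103 genes (ASO-SREBF1-S1) and 0 to 1 of the 10, and leaving out a lane 4 to 12. For the ASO pair the 7 genes became 563 without the filter (3 of the 10) and 177 with DESeq2 (4 of the 10), 1 to 955 without a library (868 without ASO-SREBF1-S4; 0 to 5 of the 10) and 10 to 46 without a lane (0 to 1 of the 10, FASN). For siSREBF1 against the ASO pair the 24 genes became 380 without the filter, 121 with DESeq2, 2 to 890 without a library (395 without ASO-SREBF1-S1; 0 to 1 of the 10) and 31 to 42 without a lane. Leaving siSREBF1 out of the fit with 3 classes was not run, since it is all of its class. Genes at least 2-fold apart between siNegative and Mock went from 1 to 2 without lane 1, and between ASO-Neg and Mock from 9 to 3 with unstranded counts.

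Values near 0 changed sign. The ACLY to ACSS2 ratio went from 0.09 to -0.0466 without ASO-SREBF1-S1 and 0.169 without ASO-SREBF1-S4, its extremes over libraries left out. For the ASO pair, MID1IP1 went from -0.02 to 0.0198 in limma-voom, from -0.206 (without ASO-SREBF1-S1) to 0.131 (without ASO-SREBF1-S4) over libraries left out, with 0.0348 without Mock, and to 0.0497 without lane 1. MECR went from -0.06 to between -0.211 (without ASO-SREBF1-S1) and 0.0513 (without ASO-SREBF1-S4), and to 0.0200 without lane 2. For siSREBF1 against the ASO pair, ACACB went from 0.002 to -0.0031 without the filter, -0.0138 in limma-voom, -0.0784 without lane 4, and between -0.0863 (without ASO-SREBF1-S4) and 0.111 (without ASO-SREBF1-S1). Leaving out ASO-SREBF1-S1 or ASO-SREBF1-S4 also gave the extremes of ACSS2, -0.178 and 0.249 (0.02 with all libraries), and of ACACA, -0.0038 and 0.0472 (also 0.02). No paired analysis was possible because the replicate numbers name lanes of 1 library, which were summed. Counts of 129 to 1266 reads per library limit the precision for the mitochondrial genes.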
